A study of Mus musculus with 6 samples.

Results

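The antigen presentation genes described here are the rows of the gene count table whose symbol starts with H2-, together with B2m, Tap1, Tap2, Tapbp, Cd74, Psmb8, Psmb9, Psmb10, Ciita and Nlrc5. This gave 38 genes of 22032, of which 28 carry the H2 prefix. By their known roles, 25 belong to the class I route and 11 to the class II route. The other two are H2-Ke6, a steroid dehydrogenase gene that lies in the region, and the pseudogene H2-T-ps. Messenger RNA was sequenced from the temporomandibular joint (TMJ, the jaw joint) of mice aged 10 weeks. Libraries 1 to 3 of the KO group carry the genotype Igf2bp2-KO, written Igf2bp2-/- in the design, a loss of the mRNA-binding protein IGF2BP2, and libraries 1 to 3 of the WT group come from WT littermates. The labels name no treatment, promoter or tissue-specific deletion, and do not say how many animals gave a library.

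MHC class I molecules are made by almost all nucleated cells. A heavy chain pairs with beta-2 microglobulin (B2m) and holds a peptide cut in the cytosol, trimmed in part by the immunoproteasome, carried into the endoplasmic reticulum by the TAP transporter and loaded with the help of tapasin. MHC class II molecules are made mainly by macrophages, dendritic cells and B cells: an alpha and a beta chain assemble on the invariant chain CD74, and H2-DM exchanges its remnant for an endosomal peptide under the brake of H2-O. Transcription of class II genes depends on the transactivator CIITA and that of class I genes in part on NLRC5, and interferon-gamma can raise both.

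Igf2bp2 had 13, 14 and 10 counts in KO libraries and 38, 20 and 24 in WT libraries, a log2 fold change of -1.80 with an edgeR false discovery rate (FDR, quasi-likelihood test adjusted over all tested genes) of 0.00589. Nuclear genes received 4604575 to 4899680 counts in KO libraries and 2625472 to 3205190 in WT libraries, since mitochondrial transcripts took 85.3% to 86.0% of KO counts and 90.6% to 90.8% of WT counts. The counts of KO 1 and KO 3 were no further apart than sampling noise allows, and so were those of WT 2 and WT 3. Each of these pairs was summed and counted as 1 sample, giving n = 2 samples per group in every mean ± SD and test, while values per library are shown for all 6. Levels are counts scaled to library size (CPM) with TMM factors, which sets the bulk of genes level between libraries. With library totals alone, the median log2 fold change of all 14632 tested genes was 0.54, against -0.01 with TMM, so every direction given here is relative to the bulk of genes. Joint markers were uneven: Col2a1, a cartilage collagen, had 32 to 66 counts in KO libraries and 25 to 45 in WT libraries, while lubricin (Prg4) had 1664 to 2075 in KO libraries and 251 to 349 in WT libraries (log2 fold change 2.02, edgeR FDR 2.14e-07). Col1a1, a collagen of bone and fibrous tissue, had 19058 to 23593 counts in KO libraries and 5175 to 7707 in WT libraries (log2 fold change 1.11, edgeR FDR 0.000134). Transcripts of fast muscle summed to 5842 to 6922 CPM in KO libraries and 3870 to 5596 CPM in WT libraries, with 4 of 10 markers called higher, or 1 without KO 2, where 1 pooled KO sample remains. Transcripts of salivary gland summed to 513 to 542 CPM in KO libraries and 40.8 to 44.3 CPM in WT libraries, with 9 of 9 markers called higher. Of all tested genes 9.15% were called higher, beside which the muscle and salivary counts are to be read. The part of these tissues in the results was not tested.

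The class II route was lower in KO joints. Of its 11 genes, 8 passed the filter on low counts, and 6 of these were called lower and 0 higher at an FDR under 0.05, where 8.48% of all tested genes were called lower and 9.15% higher. DESeq2 called 6 as well. The 6 are H2-Aa, H2-Ab1, H2-Eb1, Cd74, H2-DMa and H2-DMb1, which cover the chains, the invariant chain and the peptide editor. In each of them every KO library lay below every WT library, an arrangement found in 19.1% of all tested genes. The median log2 fold change over the 8 genes was -0.99, against -0.01 over all tested genes. In these bulk samples, fewer class II-bearing cells and less class II RNA per cell cannot be told apart.

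H2-Ab1, the beta chain of the I-A molecule, had 7.81, 7.80 and 6.83 CPM in KO libraries, against 18.0, 18.8 and 15.0 CPM in WT libraries. The lowest WT library was thus well above the highest KO library. Its mean of 7.59 ± 0.342 CPM in KO joints was 2.31-fold below the 17.5 ± 0.873 CPM in WT joints (SD, n = 2 each; log2 fold change -1.21, 95% interval -1.46 to -0.95, edgeR FDR 1.08e-05). Among the class II genes this was the smallest FDR.

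H2-Aa, the alpha chain that pairs with it, had 9.58, 8.79 and 10.3 CPM in KO libraries and 17.5, 17.6 and 17.6 CPM in WT libraries. The WT libraries were almost level with each other, and the groups stood apart. The log2 fold change was -0.90 (SE 0.117, edgeR FDR 0.000121). H2-Eb1, the beta chain of the I-E molecule, had 7.68, 7.39 and 7.86 CPM in KO libraries and 13.4, 13.8 and 14.1 CPM in WT libraries. The spread within each group was small beside the gap, and the log2 fold change was -0.85 (SE 0.119, edgeR FDR 0.000213). Both chains of I-A were therefore lower, by 1.87-fold for H2-Aa and 2.31-fold for H2-Ab1, and the 95% intervals of these changes overlap. H2-Eb2, a further beta chain, had 2 counts in KO 3 and 0 in the other libraries, and was not tested.

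Cd74, the invariant chain and the most abundant class II gene per base of transcript, had 18.9, 21.2 and 20.8 CPM in KO libraries, against 47.4, 39.2 and 39.2 CPM in WT libraries. All KO libraries were lower, and WT 1 was the highest library of all. The mean was 20.6 ± 0.955 CPM in KO joints and 43.5 ± 5.80 CPM in WT joints (SD, n = 2 each), a level 2.11-fold lower (log2 fold change -1.08, SE 0.125, edgeR FDR 4.35e-05).

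The DM molecule, which edits the peptide of class II, was sparse but changed by as much. H2-DMa had 1.62, 1.56 and 1.69 CPM in KO libraries and 3.95, 3.62 and 4.16 CPM in WT libraries, with no overlap (log2 fold change -1.28, SE 0.186, edgeR FDR 0.000301). Its exons overlap those of Brd2 on the other strand, so part of its counts may belong to Brd2. H2-DMb1 had 1.62, 1.21 and 1.47 CPM in KO libraries and 3.54, 3.31 and 3.11 CPM in WT libraries, again with no overlap (log2 fold change -1.27, SE 0.209, edgeR FDR 0.000835). Of the 50-base windows of the longest H2-DMb1 transcript, 27.2% also occur in its near copy H2-DMb2, so reads may be split between them. H2-DMb2 itself had 5, 15 and 0 counts in KO libraries and 10, 8 and 7 in WT libraries, and its log2 fold change of -0.80 (SE 0.730) did not pass the test (edgeR FDR 0.517). The H2-O chains, which hold DM back, were near the floor: H2-Ob had 0, 6 and 10 counts in KO libraries and 15, 8 and 4 in WT libraries, and H2-Oa had at most 2 counts in any library. No change of H2-O was detectable at this depth.

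Ciita, the class II transactivator, had 34, 16 and 12 counts in KO libraries and 25, 10 and 13 in WT libraries. In both groups library 1 was the highest and the groups overlapped. Its log2 fold change of -0.37 had a 95% interval of -1.32 to 0.58 (edgeR FDR 0.631), which holds both no change and the change of H2-Ab1. The Ciita exons overlap those of Dexi on the other strand, and no source used here says whether strand was used in counting.

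**Figure D1:**
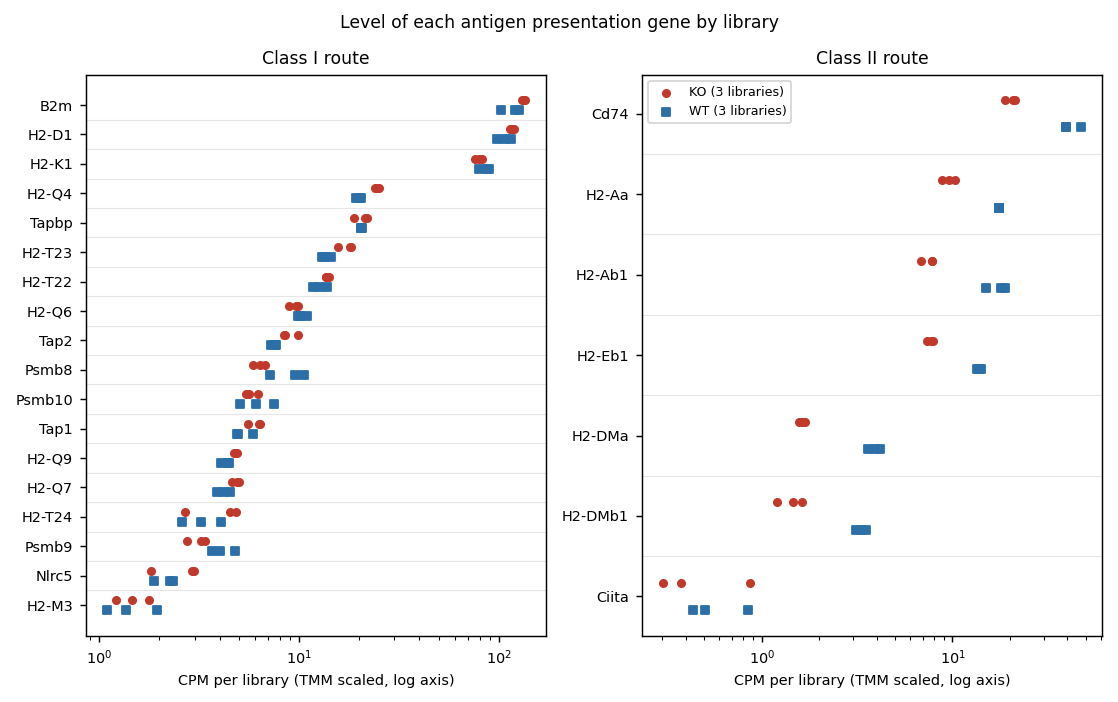
Level of each antigen presentation gene in each library, as TMM-scaled CPM on a log axis (KO, circles; WT, squares; 3 libraries each), for the 18 class I and 7 class II genes tested with a count in every library. The circles of Cd74, H2-Aa, H2-Ab1, H2-Eb1, H2-DMa and H2-DMb1 lie left of all squares of the same gene, while circles and squares mostly overlap on the class I side.

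In the class I route no gene was called. Of its 25 genes, 20 passed the filter, and edgeR called 0, where 17.6% of all tested genes were called in either direction. At an unadjusted p under 0.05 the count was 4, with H2-Q4 and H2-T23 above 0 and Psmb8 and Psmb9 below it, and DESeq2 called 0. The log2 fold changes ran from -0.45 to 0.74 with a median of 0.17, and 14 were above 0 and 6 below. All KO libraries lay above all WT libraries in 6 genes and below them in 2, while 12 overlapped; over all tested genes 38.4% did not overlap. With library totals and no scaling factor, edgeR called 15 of the 20 higher and their median was 0.71, when that of all genes was 0.54.

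B2m, the light chain shared by all class I molecules, had 131, 133 and 136 CPM in KO libraries and 102, 126 and 121 CPM in WT libraries. KO libraries were the higher ones without overlap, with WT 1 farthest below. The log2 fold change was 0.24 (95% interval -0.04 to 0.52, edgeR FDR 0.237). H2-D1, a classical heavy chain, had 119, 114 and 117 CPM in KO libraries and 98.3, 114 and 107 CPM in WT libraries, which overlapped (log2 fold change 0.15, interval -0.12 to 0.41, edgeR FDR 0.474). H2-K1, the other classical heavy chain, had 79.1, 75.9 and 82.4 CPM in KO libraries and 79.2, 89.2 and 87.2 CPM in WT libraries, which also overlapped. Its log2 fold change was -0.10 (interval -0.35 to 0.16, edgeR FDR 0.652), and 0.46 without a scaling factor. All 3 intervals exclude a fall of the size of H2-Ab1. H2-D1 and H2-K1 together gave 71.5% of all class I heavy chain counts. Within a library, H2-D1 had 149.97, 150.02 and 141 counts per 100 counts of H2-K1 in KO libraries and 124, 128 and 123 in WT libraries, a ratio that library scaling cannot move and that did not overlap between groups. Shared windows amount to 14.3% of the H2-D1 transcript and 8.1% of the H2-K1 transcript.

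The non-classical heavy chains are encoded in the Q, T and M regions. Most Q and T genes share part of their windows with other genes, while H2-M3 shares 0.6% and H2-T24 3.2%. H2-T23, which encodes Qa-1, a ligand of NKG2 receptors, had 18.3, 15.7 and 18.1 CPM in KO libraries and 13.6, 14.4 and 13.0 CPM in WT libraries. All KO libraries were higher, yet the change of 0.32 on the log2 scale (SE 0.117) had an edgeR FDR of 0.0841. H2-Q4, of the Q region, had 23.9, 24.3 and 25.2 CPM in KO libraries and 20.4, 20.1 and 19.3 CPM in WT libraries, with no overlap (log2 fold change 0.28, SE 0.108, edgeR FDR 0.0916). Both passed when the 6 libraries were tested separately, with edgeR FDRs of 0.00986 for H2-T23 and 0.0107 for H2-Q4. H2-Q6, H2-Q7, H2-Q9, H2-T22 and H2-T24 had log2 fold changes of -0.10, 0.23, 0.18, 0.12 and 0.41 with edgeR FDRs of 0.21 or more. H2-T22 shares 35.8% of its windows with other genes, mainly H2-T10, H2-Q6 shares 32.0% and H2-Q7 27.1%. H2-Q4 shares 22.0% and H2-T23 15.0%, and the H2-Q4 exons overlap those of Gm11131 on the other strand. The levels of all these genes are therefore uncertain. The sharing of H2-Q9 was not measured, as no transcript was found for it. H2-Q9 had 190, 203 and 187 counts in KO libraries and 119, 102 and 113 in WT libraries. H2-Q7 had 191, 211 and 182 in KO libraries and 114, 104 and 109 in WT libraries. In both, all KO libraries lay above all WT libraries, and whether they hold the same reads was not tested. H2-M3, which presents formylated peptides, stood at 1.77, 1.21 and 1.47 CPM in KO libraries and 1.36, 1.09 and 1.94 CPM in WT libraries (log2 fold change -0.03, edgeR FDR 0.962).

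H2-Q1 had 21, 53 and 0 counts in KO libraries and 29, 0 and 0 in WT libraries, so that its log2 fold change of 0.74 carried an SE of 2.03, and H2-M5 had 8, 14 and 7 counts in KO libraries and 14, 2 and 0 in WT libraries. The 5 class I genes that were not tested were H2-Q2, H2-Q10, H2-M1, H2-M2 and H2-M10.5. Among them H2-Q10 reached 10 counts in WT 3 and the others had at most 4 in any library. H2-T-ps, also untested, had 0, 3 and 2 counts in KO libraries and 0 in WT libraries.

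None of the genes of class I peptide supply passed the test. Tap1 and Tap2, the subunits of the peptide transporter, are needed together. Tap1 had 6.32, 6.37 and 5.54 CPM in KO libraries and 4.94, 4.88 and 5.86 CPM in WT libraries, with overlap. Tap2 had 8.40, 8.55 and 9.91 CPM in KO libraries and 7.63, 7.55 and 7.26 CPM in WT libraries, with none. Both had a log2 fold change of 0.24, with edgeR FDRs of 0.295 for Tap1 and 0.227 for Tap2. Tapbp, which encodes tapasin, was level at 21.3, 21.9 and 18.9 CPM in KO libraries and 20.4, 20.6 and 20.4 CPM in WT libraries (log2 fold change 0.03, edgeR FDR 0.881). The immunoproteasome subunit Psmb8 had 5.86, 6.40 and 6.75 CPM in KO libraries and 7.12, 10.6 and 9.55 CPM in WT libraries. The groups did not overlap, with WT 1 nearest to the KO libraries, and the log2 fold change was -0.45 (interval -0.80 to -0.10, edgeR FDR 0.0775). It passed with 6 separate libraries (edgeR FDR 0.00746). It also passed without WT 1 (edgeR FDR 0.00451, log2 fold change -0.65), a fit in which the pooled WT 2 and WT 3 are the lone WT sample and are assumed to vary like the KO samples. Psmb9 had 3.39, 2.75 and 3.24 CPM in KO libraries and 3.68, 4.01 and 4.78 CPM in WT libraries, also with no overlap (log2 fold change -0.42, edgeR FDR 0.137). Psmb10, the third inducible subunit, overlapped between groups (log2 fold change -0.09, edgeR FDR 0.784). Psmb9 and Tap1 overlap on opposite strands, and so do Psmb8 and Tap2 with the gene model Gm20496, so part of these counts may belong to the partner.

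Nlrc5, the class I transactivator, had 2.98, 2.91 and 1.82 CPM in KO libraries and 2.35, 1.88 and 2.25 CPM in WT libraries. KO 3 lay below all WT libraries and the other KO libraries above them, and the log2 fold change of 0.26 did not pass (edgeR FDR 0.436). H2-Ke6, which has no part in antigen presentation, had 6.45, 5.28 and 6.19 CPM in KO libraries and 4.73, 5.58 and 7.57 CPM in WT libraries (log2 fold change 0.02, edgeR FDR 0.96). Its windows are shared to 96.3% with the readthrough model Gm20427.

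**Figure D2:**
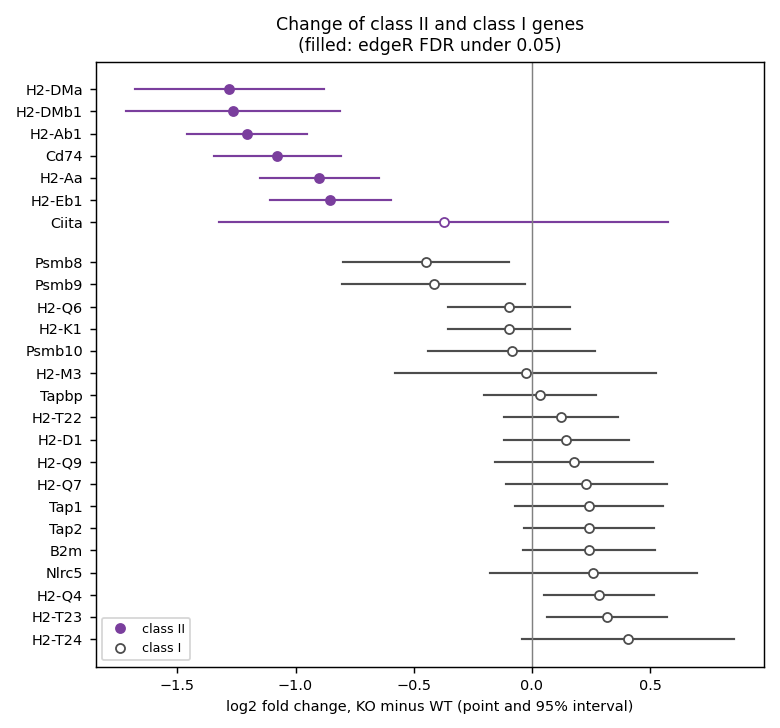
Log2 fold change, KO minus WT, of the same 7 class II and 18 class I genes with its 95% interval (n = 2 samples per group; filled points, edgeR FDR under 0.05). The 6 filled class II points lie between -1.28 and -0.85, left of every class I point, of which the lowest is Psmb8 at -0.45.

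Per kilobase of the longest annotated transcript, B2m stood highest with 155.6 CPM in KO joints and 131.5 CPM in WT joints, followed by H2-D1 with 55.3 CPM in KO joints and 49.997 CPM in WT joints, and H2-K1 with 42.0 CPM in KO joints and 44.9 CPM in WT joints. On this per-length scale Cd74 reached 14.6 CPM in KO joints and 30.9 CPM in WT joints. H2-Ab1 stood at 6.26 CPM per kilobase in KO joints, below H2-Q4 at 9.46 and H2-T23 at 6.44, whereas in WT joints it stood at 14.5, above H2-Q4 at 7.77 and H2-T23 at 5.18. H2-Eb1 stood at 4.57 CPM per kilobase in KO joints and 8.25 in WT joints, and H2-Aa at 2.92 in KO joints and 5.47 in WT joints.

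Class II chains were also lower relative to class I within each library, where library scaling plays no part. The 4 class II chain genes summed to 976, 1012 and 991 counts in KO libraries and 1438, 1152 and 1202 in WT libraries. The 17 class I heavy chain genes summed to 10800, 11442 and 11142 counts in KO libraries and 7275, 6358 and 6765 in WT libraries. For every 100 heavy chain counts there were 9.04, 8.84 and 8.89 class II chain counts in KO libraries, against 19.8, 18.1 and 17.8 in WT libraries. The ratio was nearly constant inside each group and did not overlap between them. The difference of its logarithm was -1.08 on the log2 scale, with a pooled SD between samples of 0.07 (n = 2 each), or 2.11-fold, and no p is given for a sum over chosen genes. Cd74 gave 14.4, 15.9 and 15.3 counts per 100 counts of B2m in KO libraries, against 46.4, 31.2 and 32.5 in WT libraries, so the chaperone and light chain pair showed the same order. Summed levels were 25.1, 24.0 and 25.1 CPM for class II chains in KO libraries and 49.0, 50.2 and 46.7 CPM in WT libraries, and 278, 271 and 282 CPM for class I heavy chains in KO libraries and 248, 277 and 263 CPM in WT libraries.

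**Figure D3:**
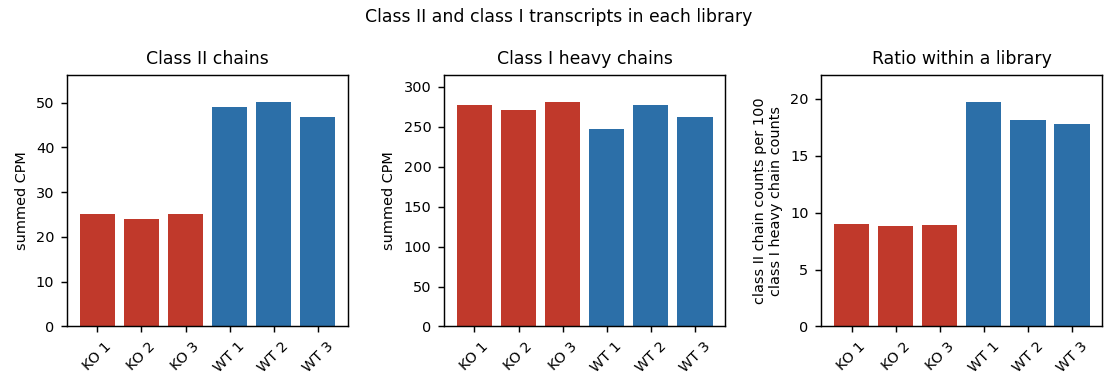
Summed TMM-scaled CPM of the 4 class II chain genes (left) and the 17 class I heavy chain genes (middle), and class II chain counts per 100 heavy chain counts (right), each bar 1 library. The class II bars and the ratio are lower in all 3 KO libraries than in any WT library, while the heavy chain bars of the groups overlap.

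The proportions inside the class II set overlapped between the groups. H2-Aa had 123, 113 and 151 counts per 100 counts of H2-Ab1 in KO libraries and 97.0, 93.3 and 117 in WT libraries. Cd74 per 100 counts of H2-Ab1 ran from 241 to 305 in KO libraries and from 208 to 263 in WT libraries, and H2-DMa per 100 counts of H2-DMb1 up to 129 in KO libraries and up to 134 in WT libraries. These ratios were not tested.

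Class II and related promoters carry a shared module, in which the RFX complex binds an X box, CREB a cyclic AMP response element (CRE) next to it, and NF-Y a Y box downstream, and on which CIITA and NLRC5 assemble. RefSeq promoters of GRCm38.p6 ran from 250 bases before to 50 after the annotated start. They were found for 30 of the 38 genes, 20 of class I and 8 of class II, but not for H2-Ab1, Cd74 or Ciita. The promoters below are shown for 180 bases before the start, 5′ to 3′ on the gene's strand, because they set class II genes that were lower in KO joints beside class I genes that were not. Capitals mark the X box and Y boxes in H2-Eb1 (chr17:34305687-34305866, plus strand) and H2-DMb1 (chr17:34153011-34153190, plus strand), a kappaB match, a CRE and the Y box in H2-Aa (chr17:34287824-34288003, minus strand), a kappaB match, the X box and Y boxes in H2-D1 (chr17:35262914-35263093, plus strand), and an ISRE match and the Y box in B2m (chr2:122147507-122147686, plus strand).
H2-Eb1: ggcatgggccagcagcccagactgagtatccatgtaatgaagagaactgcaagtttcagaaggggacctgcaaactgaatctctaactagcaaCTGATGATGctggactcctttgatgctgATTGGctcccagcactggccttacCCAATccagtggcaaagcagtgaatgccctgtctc
H2-DMb1: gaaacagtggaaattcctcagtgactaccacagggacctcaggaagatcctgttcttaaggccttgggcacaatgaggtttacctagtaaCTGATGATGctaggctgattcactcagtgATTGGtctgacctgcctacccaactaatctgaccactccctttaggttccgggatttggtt
H2-Aa: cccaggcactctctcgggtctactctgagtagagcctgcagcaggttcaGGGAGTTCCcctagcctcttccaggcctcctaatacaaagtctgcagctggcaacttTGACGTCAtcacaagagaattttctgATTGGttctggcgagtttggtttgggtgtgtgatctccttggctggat
H2-D1: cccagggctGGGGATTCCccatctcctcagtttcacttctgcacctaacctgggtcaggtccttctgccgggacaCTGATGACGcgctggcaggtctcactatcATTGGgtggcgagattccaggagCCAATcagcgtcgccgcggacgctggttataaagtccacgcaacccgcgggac
B2m: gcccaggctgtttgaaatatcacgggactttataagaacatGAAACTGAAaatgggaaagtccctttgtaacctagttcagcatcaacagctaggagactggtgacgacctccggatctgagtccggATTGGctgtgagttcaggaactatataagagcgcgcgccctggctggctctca

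Both strands were searched for the X box as CTGATGANG, the CRE as TGACGTCA, its core as TGACG, the Y box as ATTGG, the interferon element ISRE as GAAANNGAA and kappaB as GGGNNTTCC, where N is any base. These motif letters were settled after some of these promoters had been read, the CRE contains its core, and the X box can overlap that core. The capitals above mark matches to these letters and were not tested as binding sites. In H2-D1, H2-M3 and H2-Q7 the X box match ends in the CRE core. A match to the X box letters therefore does not tell the site of RFX from the CRE next to it. A promoter without a match may still hold that element in other letters, for the X box and the ISRE alike. The Y box letters occurred in 8 of 8 class II promoters and 16 of 20 class I promoters, against 37.4% of all 32851 promoters. The X box letters occurred in H2-Eb1 and H2-DMb1 of class II and in H2-D1, H2-M3 and H2-Q7 of class I, against 1.33% of all promoters. Between the X box and the next Y box on the same strand lay 19 bases in H2-Eb1 and H2-Q7 and 20 bases in H2-DMb1, H2-D1 and H2-M3, and 18 bases lay between the CRE and the Y box of H2-Aa. The spacing is thus alike in these genes of both classes, whether or not the gene was lower in KO joints. H2-DMa, which was also lower, had a Y box match at -198 to -194 bases from the start and no X box or CRE match. The full CRE occurred in 1 class II and 0 class I promoters (1.79% of all), and its core in 1 class II and 11 class I promoters (20.8%). ISRE letters occurred in B2m, H2-T22 and H2-T23 and in 0 class II promoters (8.56% of all), and kappaB in 2 class II and 6 class I promoters (5.82%).

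**Figure D4:**
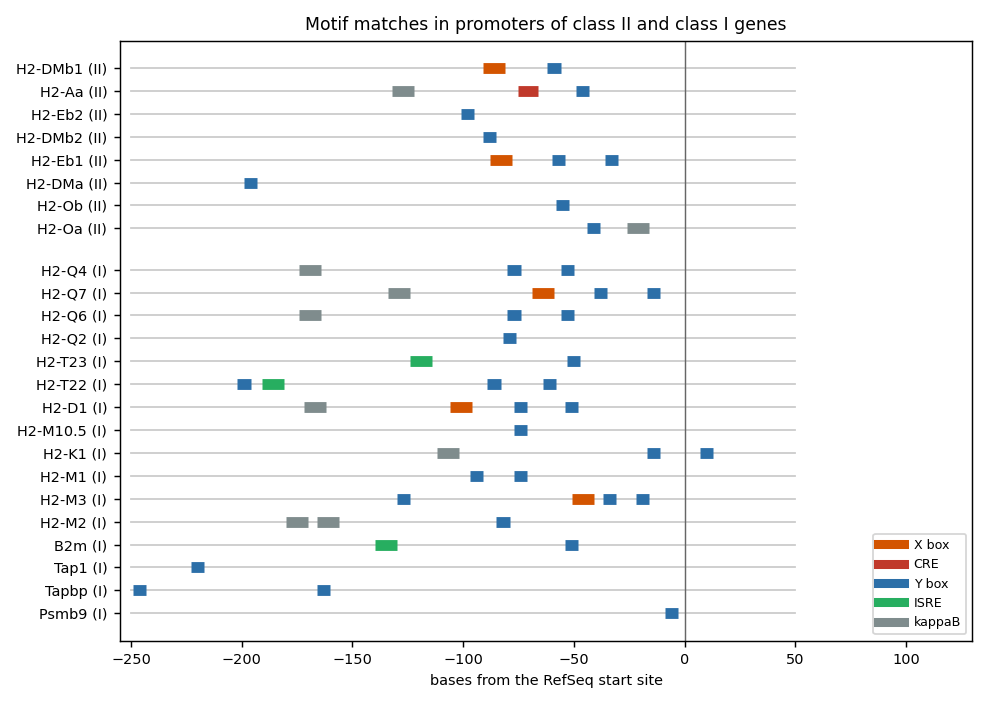
Motif matches on either strand in RefSeq promoters of class II (top) and class I (bottom) genes with a match, by distance in bases from the annotated start; the CRE core is not drawn, and 1 start is drawn for a gene with several. Y box matches lie in all 8 class II promoters found, and X box matches followed by a Y box match are seen in 2 class II and 3 class I genes.

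None of the factors behind class II transcription was called lower. Of 7 genes of the class II transcription complex, 1 was called higher and 0 lower, with a median log2 fold change of 0.01. Over all tested genes 17.6% were called in either direction, against which this and the next lists are to be read. The called gene was Rfxap, a subunit of RFX, at 4.24, 6.23 and 5.84 CPM in KO libraries and 3.51, 3.27 and 3.88 CPM in WT libraries (log2 fold change 0.65, edgeR FDR 0.015). It did not pass without KO 2 or without KO 3, with a log2 fold change of 0.51 to 0.76 over the libraries left out. Leaving out KO 2 or WT 1 keeps only 1 pooled sample in that group, whose spread is then assumed to be that of the other group, so a call lost there is no measure of a smaller change. Of 8 tested genes of interferon-gamma signalling, 2 were called higher and 0 lower. Irf8, a transcription factor of the myeloid line, had 4.88, 4.53 and 3.11 CPM in KO libraries and 1.97, 1.48 and 2.37 CPM in WT libraries (log2 fold change 1.11, edgeR FDR 0.000794). Ifngr1, the ligand-binding receptor chain, was higher by 0.48 on the log2 scale (edgeR FDR 0.011), and by 0.40 to 0.50 with a library left out, with an FDR of 0.22 without KO 2. Ifng itself had 2 counts in KO 3 and 0 elsewhere. Of 15 tested interferon-induced genes, 3 were called lower, Gbp3 (log2 fold change -0.67, edgeR FDR 0.00135), Ifit3 (-0.67, FDR 0.00431) and Ifit1 (-0.50, FDR 0.0378), and Rsad2, an antiviral enzyme, was called higher (0.49, FDR 0.0401). Ifit1 and Rsad2 did not pass without KO 1 or without WT 2, fits that keep 2 samples per group. DESeq2 did not call them either (DESeq2 FDR 0.191 for Ifit1 and 0.149 for Rsad2). Over the libraries left out the log2 fold changes were -0.73 to -0.61 for Gbp3 and -0.73 to -0.63 for Ifit3. They were -0.60 to -0.47 for Ifit1 and 0.42 to 0.65 for Rsad2.

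The endosomal enzymes of the class II route were split. Of 6 genes, 3 were called lower and 1 higher, where 8.48% and 9.15% of all tested genes were. Ctsl, a cathepsin that trims the invariant chain in some cells, had 47.5, 43.6 and 47.7 CPM in KO libraries and 25.7, 28.7 and 27.4 CPM in WT libraries (log2 fold change 0.76, edgeR FDR 0.000441). Ctss, the cathepsin that does so in professional presenting cells, had 4.50, 4.22 and 4.17 CPM in KO libraries and 5.92, 4.97 and 6.68 CPM in WT libraries (log2 fold change -0.46, edgeR FDR 0.0452). Ctsb (-0.50, FDR 0.00972) and the legumain gene Lgmn (-0.52, FDR 0.0205) were also lower. Ctss no longer passed when any of KO 2, KO 3, WT 1 and WT 3 was left out. The call was also lost for Ctsb without KO 2 and for Lgmn without KO 2 or WT 1, so that Ctsl alone passed without KO 2. The log2 fold changes over the libraries left out were -0.56 to -0.36 for Ctss, -0.52 to -0.42 for Ctsb and -0.57 to -0.41 for Lgmn. On the class I side, edgeR called 0 of 8 genes of peptide loading and the proteasome activator, 1 at an unadjusted p under 0.05, and DESeq2 called 0; Calr, the chaperone calreticulin and the most abundant, had a log2 fold change of -0.08 (edgeR FDR 0.735). Of 5 tested class I-like molecules outside the H2 locus edgeR called 0, also 0 at an unadjusted p under 0.05 and 0 by DESeq2, with the most abundant, the antibody receptor gene Fcgrt, at -0.01 (edgeR FDR 0.985). Of 5 tested costimulatory molecules 1 was called lower, Cd274, which encodes PD-L1 (log2 fold change -0.73, edgeR FDR 0.0156). It had an FDR of 0.133 without KO 2 and a log2 fold change of -0.85 to -0.69 over the libraries left out.

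Most macrophage markers were lower in KO joints, and the leukocyte and dendritic cell lists gave fewer calls but also had medians below 0. The median log2 fold change of the tested markers was -0.89 for macrophages, -0.62 for leukocytes and -1.03 for dendritic cells. Over all tested genes it was -0.01. The dendritic cell median depended on the low-count filter. It was -0.09 over 11 markers with no filter, and -0.13 over the 3 markers with at least 50 counts in 3 libraries. In these 2 settings the macrophage median was -0.87 and -0.82, and the leukocyte median -0.60 and -0.67. Of 13 macrophage markers, 8 were called lower and 1 higher, against 8.48% lower and 9.15% higher over all tested genes, and their summed level ran from 67.7 to 70.9 CPM in KO libraries and from 100.9 to 122.9 CPM in WT libraries. Csf1r, the receptor for the macrophage growth factor CSF1, had 5.06, 5.02 and 4.93 CPM in KO libraries and 11.1, 8.50 and 9.83 CPM in WT libraries (log2 fold change -1.01, edgeR FDR 0.000216). Lyz2 (-0.89, FDR 0.000174), Mrc1 (-1.20, FDR 0.000218) and Cd68 (1.99-fold, FDR 0.00251) were lower too, and Mertk, an efferocytosis receptor gene, was higher (0.75, FDR 0.0028). Without KO 2 the FDR of Mertk was 0.0579, and its log2 fold change was 0.65 to 0.85 over the libraries left out. Of 9 general leukocyte markers 2 were called lower, where 8.48% of all tested genes were, Laptm5 (log2 fold change -0.92, edgeR FDR 0.00159) and Arhgdib (-0.70, FDR 0.00564), with a summed level of 15.6 to 16.3 CPM in KO libraries and 22.8 to 28.5 CPM in WT libraries. Of 8 tested dendritic cell markers 3 were called lower and 1 higher, where 17.6% of all genes were called in either direction. Clec10a had 0.976, 0.853 and 0.986 CPM in KO libraries and 2.49, 2.36 and 2.45 CPM in WT libraries (log2 fold change -1.40, edgeR FDR 0.000942), Cd83 was lower (-1.47, FDR 0.0226), and Clec9a, a marker of the cross-presenting type, was higher (0.95, FDR 0.0332). Siglech, a marker of plasmacytoid dendritic cells, was listed at 0, 0 and 0.152 CPM in KO libraries and at 0.375, 0.654 and 0.388 CPM in WT libraries (edgeR FDR 0.0118). Clec9a did not pass without KO 3 or without WT 3, and Siglech did not pass without KO 1, fits that keep 2 samples per group. DESeq2 did not call Clec9a (DESeq2 FDR 0.169) or Cd83 (DESeq2 FDR 0.0839). The log2 fold change of Clec9a was 0.80 to 1.17 over the libraries left out. The dendritic cell list summed to 7.28 to 8.22 CPM in KO libraries and 9.83 to 10.5 CPM in WT libraries. The part of these cells in the class II result was not tested.

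B cell markers were near the floor in both groups. Of 9 B and plasma cell markers 1 passed the filter, Jchain, which edgeR did not call (log2 fold change -0.66, FDR 0.454), the list summed to 0.379 to 0.877 CPM in KO libraries and 0.436 to 1.01 CPM in WT libraries, Cd22 was at 0 in KO libraries and Ms4a1 was at 0 in WT libraries. Of 2 tested T and NK cell markers, Cd247 was called lower (log2 fold change -1.05, edgeR FDR 0.00971) and Thy1, which fibroblasts also express, higher (0.86, FDR 0.00123), with an FDR of 0.0545 for Cd247 without KO 2; Cd3d and Cd3g were at 0 in WT libraries and Ncr1 in KO libraries. That list, of which Thy1 is the main part, summed to 8.77 to 10.0 CPM in KO libraries and 6.80 to 6.88 CPM in WT libraries. Of 5 tested neutrophil markers, 3 were called lower, led by S100a9 with 1.31, 1.11 and 1.90 CPM in KO libraries and 4.46, 5.80 and 5.59 CPM in WT libraries (log2 fold change -1.87, edgeR FDR 3.97e-05), then Ltf (-1.40, FDR 0.000657) and S100a8 (-1.23, FDR 0.00656). Of 8 markers of endothelial cells, Cldn5 (2.19, FDR 0.000191) and Pecam1 (0.74, FDR 0.000544) were called higher and Kdr (-0.88, FDR 0.000108) and Emcn (-0.50, FDR 0.00679) lower, with a summed level of 287 to 295 CPM in KO libraries and 247 to 256 CPM in WT libraries. Of 6 fibroblast markers, Thy1 was called higher and the collagens Col1a2 and Col3a1 lower, whereas Col1a1, which is not in the list, was higher, as given above. Without KO 2, with 1 KO sample, Col1a2 and Col3a1 did not pass, with log2 fold changes of -0.51 to -0.41 for Col1a2 and -0.74 to -0.63 for Col3a1 over the libraries left out. The list summed to 373 to 393 CPM in KO libraries and 477 to 520 CPM in WT libraries.

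**Figure D5:**
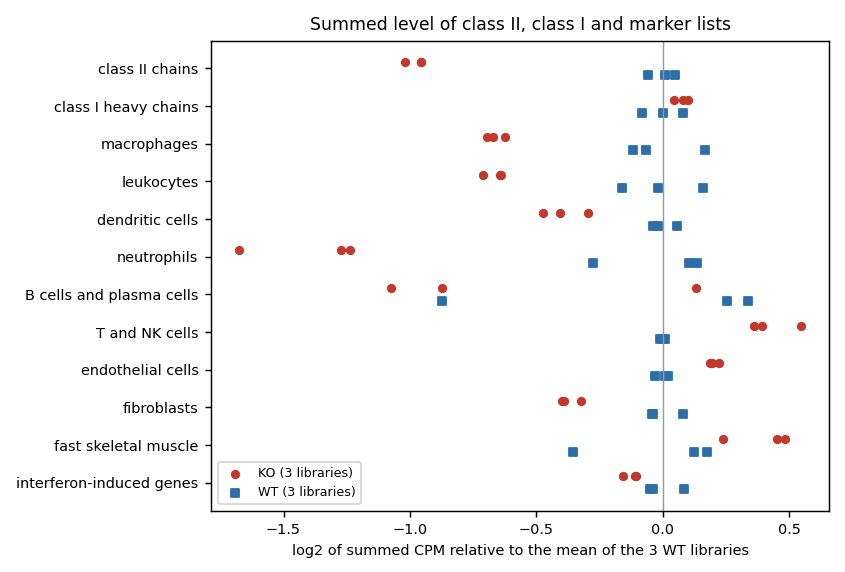
Summed CPM of class II chains, class I heavy chains and marker lists in each library, on a log2 scale relative to the mean of the 3 WT libraries (KO, circles; WT, squares). In KO libraries class II chains lie near -1, macrophage and leukocyte lists between about -0.7 and -0.6, and class I heavy chains slightly above 0.

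Class II chains were lower in KO libraries relative to the summed counts of the macrophage, leukocyte and dendritic cell lists, but not of neutrophil markers. For every 100 counts of the macrophage list there were 35.3, 34.9 and 37.0 class II chain counts in KO libraries, against 39.9, 49.8 and 44.7 in WT libraries. Per 100 counts of the leukocyte list the values were 153.9, 154.0 and 153.4 in KO libraries and 195, 220.3 and 164 in WT libraries. Per 100 counts of the dendritic cell list they were 329, 292 and 344 in KO libraries and 491, 478 and 475 in WT libraries. In none of these 3 ratios did the groups overlap, but KO 3 lay close to WT 1 for the macrophage list and WT 3 close to the KO libraries for the leukocyte list. The main part of the dendritic cell list was Zbtb46 (log2 fold change -0.11, edgeR FDR 0.739), followed in KO libraries by Clec9a, which was higher. Clec10a, Cd83 and Siglech fell by more than any tested class II chain, so that ratio depends on the markers chosen. Per 100 counts of the neutrophil list there were 503, 636 and 491 in KO libraries and 492, 380.2 and 361 in WT libraries, which overlapped with most KO values higher. The macrophage markers Mrc1 and Csf1r had log2 fold changes in the range of those of the class II chains. These ratios are descriptions, with no test.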

How the data were processed

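RNA from 6 TMJ libraries was extracted with Trizol and mRNA was isolated with a bead kit, per the labels' protocols. The authors deposited raw counts per gene symbol, not normalized. HISAT2 2.1.0, StringTie 2.1.5 and build mm39 are named in the submitters' processing notes; the annotation, strand setting and treatment of reads with several matches were not given in the sources used here. Total counts were 28551236 to 35094127 per library. Genes at 2 counts outnumbered genes at 1 by 4.69 to 5.06 times, so a read pair appears to give 2 counts.

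Groups and numbers came from the titles. Libraries of a group were compared by the ratio of their variance to that of sampled read pairs over nuclear genes with at least 20 summed counts. The median ratio was 0.941 for KO 1 and KO 3 and 0.965 for WT 2 and WT 3, and 1.306 to 1.628 for other pairs; pairs under 1.1 were summed. No label ties a library to an animal of its own, so the p-values rest on the spread among these samples, and that spread may be technical. Same-numbered libraries had correlations of deviations of -0.108, -0.154 and 0.123, so the numbers do not pair them.

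The test was edgeR 4.0.16 in R 4.3.3 over the whole table (filterByExpr minimum count 10, TMM, robust quasi-likelihood, group as the term), with Benjamini-Hochberg FDR over 14632 genes and calls under 0.05; 2580 genes were called. The SE is the absolute log2 fold change divided by the square root of F. The step was tested on simulated data. Every gene of the antigen presentation set is named, and of each list the called members, up to 4 of smallest p, or the most abundant where none was called; Mertk, H2-Ke6, Ifng, joint markers and markers at 0 stand outside that rule, muscle and salivary markers are given as counts, and some list members are not reported here. Members and lists were chosen with earlier results of these data known. Alternatives were DESeq2 1.42.0 and its size factors, other filters, separate libraries, nuclear genes only, the replicate block, no scaling factor (added after the data were seen) and leaving out each library. Promoter sequences are RefSeq's, of GRCm38.p6, another build than that of the counts; transcript lengths and shared windows are from GENCODE M21.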

Additional observations from a re-analysis of the deposited data

How the results depend on the processing

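The 6 class II calls held under every alternative but the one with library totals and no scaling factor, where 5 were called and H2-Eb1 stood at -0.30 (edgeR FDR 0.0724). Class I gave 3 called genes with 6 separate libraries (H2-Q4 and H2-T23 higher, Psmb8 lower), 1 with no filter on low counts (Psmb8, log2 fold change -0.43), 15 with library totals, and 0 to 1 when a library was left out, the 1 being Psmb8 without WT 1. With library totals H2-Q6 stood at 0.45, H2-K1 at 0.46 and Psmb10 at 0.47, each below the shift of 0.54 in the median of all genes. The replicate numbers share only a number; with the replicate block on 6 libraries, 2953 genes were called over the whole table, 6 of class II and 3 of class I. Over all genes, 2580 calls became 3452 with 6 libraries, 1634 with the DESeq2 Wald test, 7734 with library totals and 1149 to 2434 with a library left out, lowest without KO 2. Without KO 2 or WT 1 that group has 1 pooled sample, assumed to vary like the other group, while the other leave-outs keep 2 samples per group. The log2 ratio of class II to class I was -1.16 over all members of each class, and -1.09 to -1.01 with a library left out. The causes were not tested. H2-O, H2-DMb2, Ciita and the low Q and M genes are limited by depth, and the scaling rests on the bulk of genes being level, which these data cannot check.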
